A study of Mus musculus with 4 samples.

Results

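*Parp9*, *Parp10*, *Parp11*, *Parp12*, *Parp14* and *Dtx3l*, genes of ADP-ribosylation that are known to respond to interferon, were examined in LSK cells with and without *Pich*. *Parp1* and *Parp2*, family members that are not regarded as interferon targets, were taken beside them. The 8 genes were chosen by symbol from the 39186 genes of the deposited table, and all 8 passed the filter on low values. The study sequenced RNA of LSK cells, the lineage-negative, Sca-1-positive and c-Kit-positive fraction that holds hematopoietic stem cells and early progenitors, sorted from mid-gestation fetal liver of mice. There were 2 *Pich*-KO and 2 *Pich*-WT samples, all on the C57BL/6 strain, with no treatment named. *Pich* (listed as *Ercc6l*) encodes a DNA translocase that binds the ultrafine DNA bridges of anaphase. The knockout allele is a small germline deletion in an early exon made with TALENs, so every cell of the embryo carries it. The labels do not say whether a sample was 1 embryo or a pool, nor whether the 2 samples of a group were independent. The p-values measure the spread between these samples, and how much of it is technical is not known.

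PARP enzymes take ADP-ribose from NAD+ and attach it to proteins and nucleic acids. PARP1 and PARP2 sit in the nucleus, are switched on by DNA breaks and build long chains of poly-ADP-ribose, whereas most of the interferon-linked members add single units or, as PARP9, mainly bind ADP-ribose. Type I and type II interferons act through JAK kinases on STAT proteins. The ISGF3 complex, which contains STAT2 and IRF9, binds the interferon-stimulated response element (ISRE), and the gamma-activated site (GAS) is the element of the type II response. DTX3L, a Deltex-type ubiquitin ligase, forms a stable pair with PARP9 that acts in DNA damage signalling and antiviral defence.

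On mouse build GRCm38, 3 of the 6 interferon-linked genes lay together on chromosome 16. *Parp9* (ENSMUSG00000022906) spans chr16:35938470-35972605 on the plus strand and *Dtx3l* (ENSMUSG00000049502) spans chr16:35926511-35939151 on the minus strand. The pair is arranged head to head, with 5′ ends that overlap by 682 bases, 458 of them in annotated exons of both genes. *Parp14* (ENSMUSG00000034422) lies at chr16:35832874-35871544 on the minus strand, 54966 bases from *Dtx3l*. The other members stand apart, with *Parp10* (ENSMUSG00000063268) at chr15:76231174-76243441, *Parp11* (ENSMUSG00000037997) at chr6:127446840-127494261 and *Parp12* (ENSMUSG00000038507) at chr6:39086410-39118349. *Parp1* (ENSMUSG00000026496) is at chr1:180568924-180601254 and *Parp2* (ENSMUSG00000036023) at chr14:50807841-50821301.

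RefSeq promoter windows, from 250 bases before to 50 bases after an annotated start on GRCm38.p6, were matched for 5 of the 8 genes, *Parp1*, *Parp2*, *Parp11*, *Parp12* and *Dtx3l*. Both strands were searched for the ISRE core, spelled GAAA, any 2 bases and GAAA, and for the GAS core, spelled TTC, any 3 bases and GAA. *Parp11*, which has 2 windows, was the only one of the 5 genes with a match. Its upstream start held an ISRE core in minus orientation from -44 to -35 and a GAS core from -37 to -29, which share the bases from -37 to -35. Of all 32851 RefSeq windows, from 27025 genes, 3.44% held the ISRE core and 8.30% the GAS core. A match is a description of letters and not of binding. The 80 bases just before the start are shown for *Parp11*, with both elements in capitals as 1 run, and beside it, for contrast, for *Parp12*, *Dtx3l* and *Parp1*, in which the letters are absent. They were read at chr6:127446760-127446839 (plus strand), chr6:39118350-39118429 (minus), chr16:35939028-35939107 (minus) and chr1:180568811-180568890 (plus).
Parp11: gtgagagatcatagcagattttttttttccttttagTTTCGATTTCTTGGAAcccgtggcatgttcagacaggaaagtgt
Parp12: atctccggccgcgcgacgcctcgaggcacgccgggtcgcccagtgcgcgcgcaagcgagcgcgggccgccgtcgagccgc
Dtx3l: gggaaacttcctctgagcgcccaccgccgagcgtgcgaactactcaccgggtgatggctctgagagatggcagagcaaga
Parp1: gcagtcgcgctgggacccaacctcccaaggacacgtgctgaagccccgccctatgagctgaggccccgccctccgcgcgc

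Each sample held 14703215 to 20933919 reads on genes, and the values below are the authors' normalized counts, read counts divided by 1 size factor per sample. Differences were tested with limma on log2(normalized count + 1), with Benjamini-Hochberg adjustment over 32428 genes and a threshold of 0.05. With 2 samples against 2, an exact permutation test of 1 gene cannot go below p = 0.333, so the calls rest on a variance shared across genes. The targeted gene *Ercc6l* was still transcribed, at 1142 and 1232 in *Pich*-KO samples 1 and 2, against 772 and 661 in *Pich*-WT samples 1 and 2 (log2 fold change 0.73, limma adjusted p = 0.00887), so its level does not check the genotype labels. Over *Eif2s3y*, *Kdm5d*, *Uty* and *Ddx3y* of the Y chromosome, *Pich*-WT sample 2 had 0 reads and the others 1607 to 2848. The 2 *Pich*-WT samples were thus not repeats of the same material, and sex was not part of the fit. Of the 9 LSK markers, *Kit* (c-Kit) was present in all 4 samples at 2328 to 4447, *Ly6a* (Sca-1) rose by a log2 fold change of 1.74, and *Procr*, *Hlf*, *Mecom* and *Slamf1* fell. Markers of other cells also differed. All 12 macrophage markers fell, their summed normalized counts being 9208 and 8057 in *Pich*-KO against 62762 and 64987 in *Pich*-WT samples, and none was at 0. All 5 endothelial markers fell too (2102 and 1349 against 26051 and 17419), as did 7 of 9 erythroid markers (31542 and 35067 against 173145 and 132784) and 3 of 6 hepatocyte markers (2879 and 2376 against 4359 and 3807). Of 8 neutrophil precursor markers 3 rose, *Mpo*, *Prtn3* and *Ctsg*, and the list summed to 64422 and 120998 against 16403 and 19050. None of the 4 plasmacytoid dendritic markers was called, and lineage genes used as a check of the sort summed to 116 to 334 in every sample, with *Cd4* called lower. The part of these shifts in the results below was not tested, and in bulk samples a change in the number of cells of a type and a change in RNA per cell cannot be told apart.

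All 6 interferon-linked genes were higher in *Pich*-KO than in *Pich*-WT LSK cells and all 6 passed the threshold, by 1.86-fold for *Parp11* to 5.79-fold for *Parp14*. Among all genes tested, many of them with few reads, 7.58% were called higher and 9.60% lower. With at least 10 reads required in every sample, a fit that also called all 6, the calls were more frequent. There, 2937 of 13924 genes were higher and 3135 lower. The median log2 fold change was 1.33 over the 6 genes and 0.02 over all genes tested. In each of the 6, and in *Parp1* and *Parp2*, both *Pich*-KO values lay above both *Pich*-WT values, a pattern found in 28.9% of the genes tested. Without the variance trend limma called 0 of the 6 genes and 0 of all genes tested, although 7377 had an unadjusted p under 0.05. The limma calls were also lost with any 1 sample left out, where the log2 fold changes ranged from 0.45 (*Parp12*) to 2.74 (*Parp14*). With edgeR on the recovered reads without 1 sample, fits added after seeing the data, they ranged from 0.48 (*Parp12*) to 2.78 (*Parp14*). The members were listed with earlier results of these samples known, so the count is a description and not independent evidence.

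**Figure D1:**
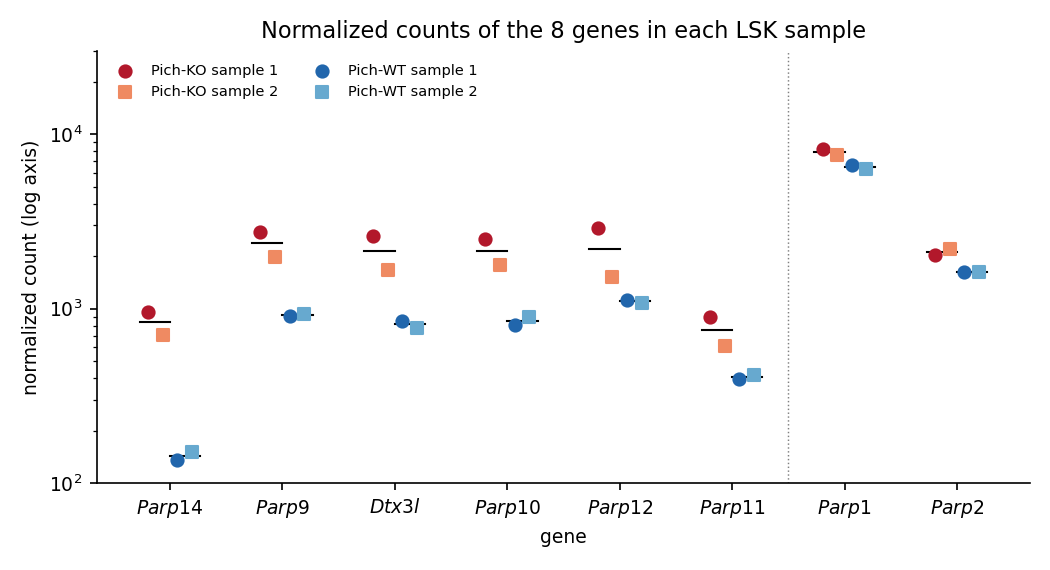
Normalized counts of the 8 genes (log axis) in each of the 2 *Pich*-KO (red and orange) and 2 *Pich*-WT (blue) samples, with black bars at the group means. The samples of the groups do not overlap for any of the 8 genes, and *Pich*-KO sample 1 is the highest for all genes but *Parp2*.

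*Parp9* and *Dtx3l*, whose products form the ADP-ribose-binding ubiquitin ligase pair, changed by nearly the same amount. *Parp9* had normalized counts of 2763 and 1973 in *Pich*-KO samples 1 and 2, against 908 and 931 in *Pich*-WT samples 1 and 2. The *Pich*-WT values thus differed little, while *Pich*-KO sample 1 stood 1.40-fold above sample 2. The means were 2368 ± 558 and 920 ± 16.2 (SD, n = 2 each), a log2 fold change of 1.34 (SE 0.17, limma adjusted p = 0.00114). *Dtx3l* had 2605 and 1670 in *Pich*-KO samples, against 849 and 780 in *Pich*-WT samples, again with no overlap and with sample 1 the higher *Pich*-KO sample. Its means were 2137 ± 661 and 814 ± 48.6 (SD, n = 2 each), a log2 fold change of 1.36 (SE 0.20, limma adjusted p = 0.00268).

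Within a sample, the log2 ratio of *Dtx3l* to *Parp9* was -0.09 and -0.24 in *Pich*-KO samples, against -0.10 and -0.26 in *Pich*-WT samples. These ratios overlapped between the groups, and their means differed by 0.01, so the levels of the pair kept nearly 1 proportion in all 4 samples while both genes rose. The library kit does not mark strand, so reads in the 458 shared exonic bases could not be assigned to one gene of the pair. An annotated antisense gene, *Gm15564*, also overlaps the 3′ part of *Parp9* by 5854 bases. It had 95 to 133 reads per sample, against 931 to 2533 for *Parp9*, and was not called (log2 fold change 0.11, limma adjusted p = 0.852).

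*Parp14*, a large mono-ADP-ribosyltransferase with macrodomains that is known as a partner of STAT6, had the largest change of the 8 genes and the lowest level in *Pich*-WT cells. Its normalized counts were 963 and 705 in *Pich*-KO samples, against 136 and 152 in *Pich*-WT samples. The lower *Pich*-KO sample was far above the higher *Pich*-WT sample. The means were 834 ± 183 and 144 ± 11.3 (SD, n = 2 each), a log2 fold change of 2.51 (SE 0.20, limma adjusted p = 0.000177). The *Pich*-WT values rested on 174 and 152 reads, the fewest of any member. By log2 fold change *Parp14* ranked 53 of 10544 genes whose mean reached 100. *Dtx3l*, *Parp9* and *Parp10* ranked 335, 350 and 373, and *Parp12* and *Parp11* 828 and 932. Relative to its chromosome 16 neighbour, the log2 ratio of *Parp14* to *Parp9* was -1.52 and -1.48 in *Pich*-KO samples, against -2.73 and -2.61 in *Pich*-WT samples. The groups did not overlap, with a difference of 1.17 between their means, so *Parp14* did not keep the proportion that *Dtx3l* kept to *Parp9*. Between the *Pich*-KO samples, in contrast, the ratio of *Parp14* to *Parp9* differed by 0.04.

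*Parp10* encodes a mono-ADP-ribosyltransferase first described as a partner of MYC. Its values were 2504 and 1788 in *Pich*-KO samples, against 810 and 900 in *Pich*-WT samples. They followed those of *Parp9* closely although the genes are on different chromosomes, with the same 1.40-fold distance between the *Pich*-KO samples. The means were 2146 ± 506 and 855 ± 63.9 (SD, n = 2 each), a log2 fold change of 1.31 (SE 0.17, limma adjusted p = 0.00151). *Plec*, on the same strand, overlaps the span of *Parp10* by 1401 bases and had 477 to 670 reads per sample.

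*Parp12*, a zinc-finger mono-ADP-ribosyltransferase with antiviral activity, was the least even of the members. It had 2903 and 1510 in *Pich*-KO samples, against 1120 and 1085 in *Pich*-WT samples, so that *Pich*-KO sample 1 was 1.92-fold above sample 2. The means were 2207 ± 986 and 1102 ± 24.7 (SD, n = 2 each), a log2 fold change of 0.92 (SE 0.26, limma adjusted p = 0.0475). Its size turned on the *Pich*-KO sample used, with a log2 fold change of 0.45 without *Pich*-KO sample 1 and of 1.40 without sample 2. The call was lost with a pseudocount of 0.1 (limma adjusted p = 0.104), with no filter on low values (0.139), with no variance trend (0.305) and in each of 4 limma fits without 1 sample (0.0949 to 0.468), over a range of 1.80e-06 to 0.468 among 11 alternatives.

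*Parp11*, a mono-ADP-ribosyltransferase of the nuclear envelope that is known to act on the turnover of the type I interferon receptor, had the smallest change of the 6. Its values were 901 and 613 in *Pich*-KO samples, against 395 and 417 in *Pich*-WT samples. The groups did not overlap. The means were 757 ± 204 and 406 ± 15.2 (SD, n = 2 each), a log2 fold change of 0.87 (SE 0.20, limma adjusted p = 0.0210). The call was lost with no filter on low values (limma adjusted p = 0.0634), with no variance trend (0.220) and in each of 4 limma fits without 1 sample (0.0970 to 0.346), over a range of 0.000185 to 0.346 among 11 alternatives. The upstream start of *Parp11* had the ISRE and GAS letters before it, and the other *Parp11* window held neither. Which start was in use is not known, and a relation between the letters and the fold change was not tested.

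*Parp1* and *Parp2* were higher in *Pich*-KO cells by a smaller amount. *Parp1* had 8163 and 7545 in *Pich*-KO samples, against 6680 and 6321 in *Pich*-WT samples. Means of 7854 ± 437 and 6500 ± 254 (SD, n = 2 each) gave a log2 fold change of 0.27 (SE 0.08, limma adjusted p = 0.0621), which did not pass the threshold. It did pass with at least 10 reads required in every sample (limma adjusted p = 0.0445), with edgeR (0.0313) and with a replicate block (0.0426), over a range of 0.0313 to 0.504 among 11 alternatives. *Parp2* had 2029 and 2196 in *Pich*-KO samples, against 1617 and 1618 in *Pich*-WT samples, and was the only one of the 8 genes whose second *Pich*-KO sample was the higher. Means of 2112 ± 118 and 1617 ± 0.753 (SD, n = 2 each) gave a log2 fold change of 0.38 (SE 0.11, limma adjusted p = 0.0457). That call was lost with a pseudocount of 0.1 (limma adjusted p = 0.0557), with no filter (0.0691), with no variance trend (0.368) and in each of 4 limma fits without 1 sample (0.101 to 0.292), over a range of 0.0189 to 0.368 among 11 alternatives. The log2 ratio of *Parp2* to *Parp1* was -2.01 and -1.78 in *Pich*-KO samples, against -2.05 and -1.97 in *Pich*-WT samples, which overlapped.

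**Figure D2:**
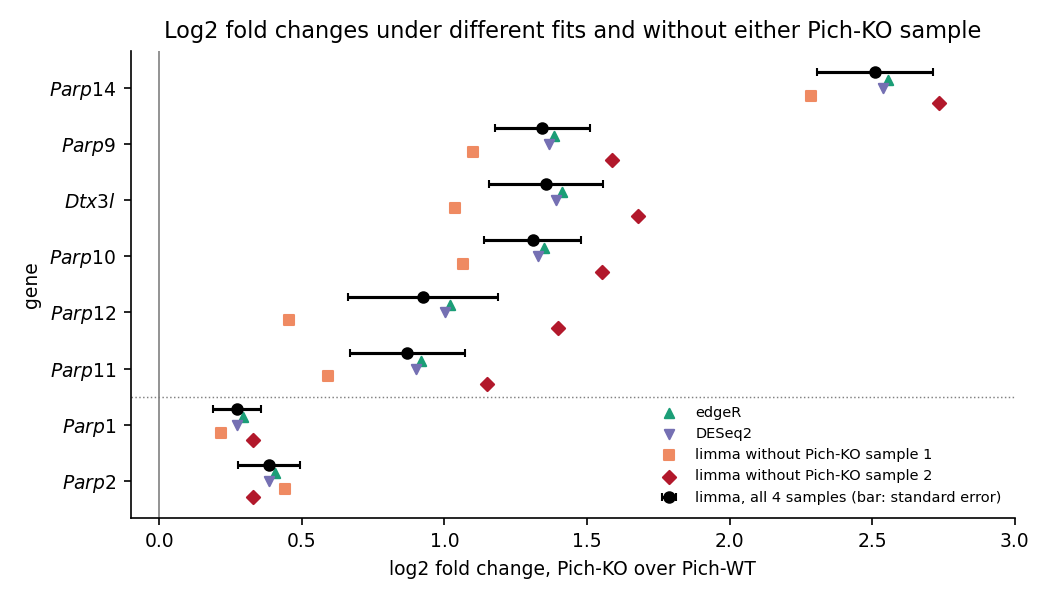
Log2 fold changes of *Pich*-KO over *Pich*-WT for the 8 genes from limma on all 4 samples (black, with standard errors), edgeR and DESeq2 on the recovered reads, and limma without either *Pich*-KO sample. All values are above 0, and leaving out *Pich*-KO sample 1 moves *Parp12* to 0.45 while *Parp14* remains at 2.29.

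Read against *Parp1* and *Parp2* within each sample, a measure in which the size factors cancel, the interferon-linked genes were higher in both *Pich*-KO samples than in either *Pich*-WT sample. The log2 ratio to the mean of *Parp1* and *Parp2* differed between the group means by 2.18 for *Parp14*, 1.03 for *Dtx3l*, 1.02 for *Parp9* and 0.98 for *Parp10*. The difference was 0.60 for *Parp12* and 0.54 for *Parp11*. The *Parp12* ratio was -0.49 and -1.43 in *Pich*-KO samples, against -1.55 and -1.56 in *Pich*-WT samples, so *Pich*-KO sample 2 was nearly level with the *Pich*-WT samples. *Parp11*, at -2.17 and -2.73 against -3.05 and -2.94, had the next smallest gap.

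The 6 genes had in common that *Pich*-KO sample 1 exceeded *Pich*-KO sample 2, by 1.37-fold for *Parp14* to 1.92-fold for *Parp12*. The share of all genes with this order was not counted, so the order alone does not set the members apart. The *Pich*-WT samples were within 0.895-fold and 1.09-fold of each other for the same genes. *Parp1* and *Parp2* had 1.08-fold and 0.924-fold between the *Pich*-KO samples. These samples also differed in the neutrophil precursor sum (64422 and 120998), in *Kit* (4447 and 2772) and in the share of reads on mitochondrial genes (0.238% and 0.493%), and the part of these in the members' spread was not tested.

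**Figure D3:**
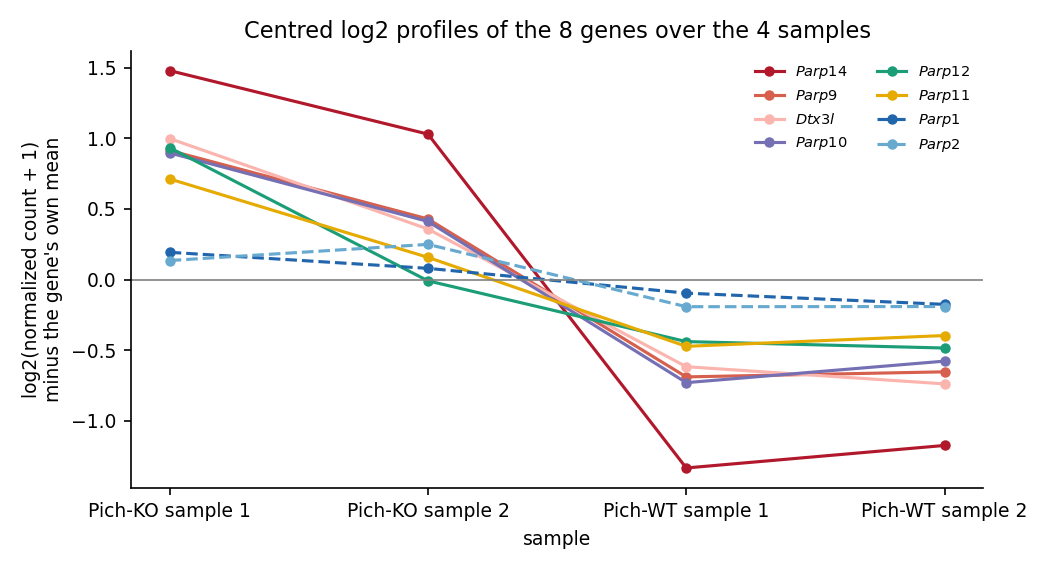
Each gene's log2(normalized count + 1) in the 4 samples after subtraction of its own mean, with lines only to guide the eye (solid for the 6 interferon-linked genes, dashed for *Parp1* and *Parp2*). *Parp9*, *Dtx3l* and *Parp10* nearly coincide, *Parp14* runs steeper, and *Parp12* is at 0.93 in *Pich*-KO sample 1 and -0.01 in sample 2.

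Levels of different genes were set side by side as normalized counts per kb of the deposited gene length. In *Pich*-WT cells *Parp1* was highest at 1228 ± 47.9, followed by *Parp2* at 446 ± 0.208, *Parp12* at 276 ± 6.18 and *Parp10* at 200.0 ± 14.9 (SD, n = 2 each). *Parp9* at 189 ± 3.32, *Dtx3l* at 142 ± 8.49, *Parp11* at 57.8 ± 2.17 and *Parp14* at 15.5 ± 1.22 came below them (SD, n = 2 each). Only *Parp10* and *Parp9* had overlapping *Pich*-WT samples. The order of the means was the same in *Pich*-KO cells, but more neighbours overlapped. *Parp1* stood at 1484 ± 82.6 and *Parp2* at 582 ± 32.6, and *Parp12* at 552 ± 247, *Parp10* at 502 ± 118 and *Parp9* at 486 ± 115 had come near *Parp2* (SD, n = 2 each). *Dtx3l* reached 373 ± 115, *Parp11* 108 ± 29.0 and *Parp14* 89.6 ± 19.6 (SD, n = 2 each), and the samples of *Parp11* and *Parp14* overlapped. Some places in the order depend on the length taken. Per kb of coding length *Parp11*, which has 993 coding bases in 7026 bases of annotated exons, stood at rank 4 in *Pich*-WT cells in place of rank 7, while *Parp1* and *Parp2* stayed first and second and *Parp14* last.

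Around *Parp14*, *Dtx3l* and *Parp9*, 16 other genes within 250 kb of the span of the 3 were tested, 10 of them protein-coding. Of the 16 genes 4 rose and 1 fell, and the same counts held for the 10. Over all genes tested 7.58% were called higher and 9.60% lower. With at least 10 reads required in every sample, the calls were 2937 and 3135 of 13924 genes. *Hspbap1*, next to *Parp14*, had 410 and 531 in *Pich*-KO samples, against 188 and 173 in *Pich*-WT samples (log2 fold change 1.37, limma adjusted p = 0.00247). *Kpna1*, which lies beyond *Parp9* and encodes an importin of nuclear transport, had 2794 and 2271 against 1589 and 1449 (log2 fold change 0.73, limma adjusted p = 0.00683). *Ccdc58* (log2 fold change 1.03) and *Fam162a* (0.70) also rose. *Dirc2*, on the far side of *Hspbap1*, fell by 1.05 on the log2 scale, and *Wdr5b* was not called (log2 fold change -0.41, limma adjusted p = 0.286). The neighbours were not counted again with at least 10 reads required, so their counts are a description and no result about the region. For *Hspbap1*, *Ccdc58* and *Fam162a* the second *Pich*-KO sample was the higher, the opposite of the members, whereas *Kpna1* resembled the members.

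**Figure D4:**
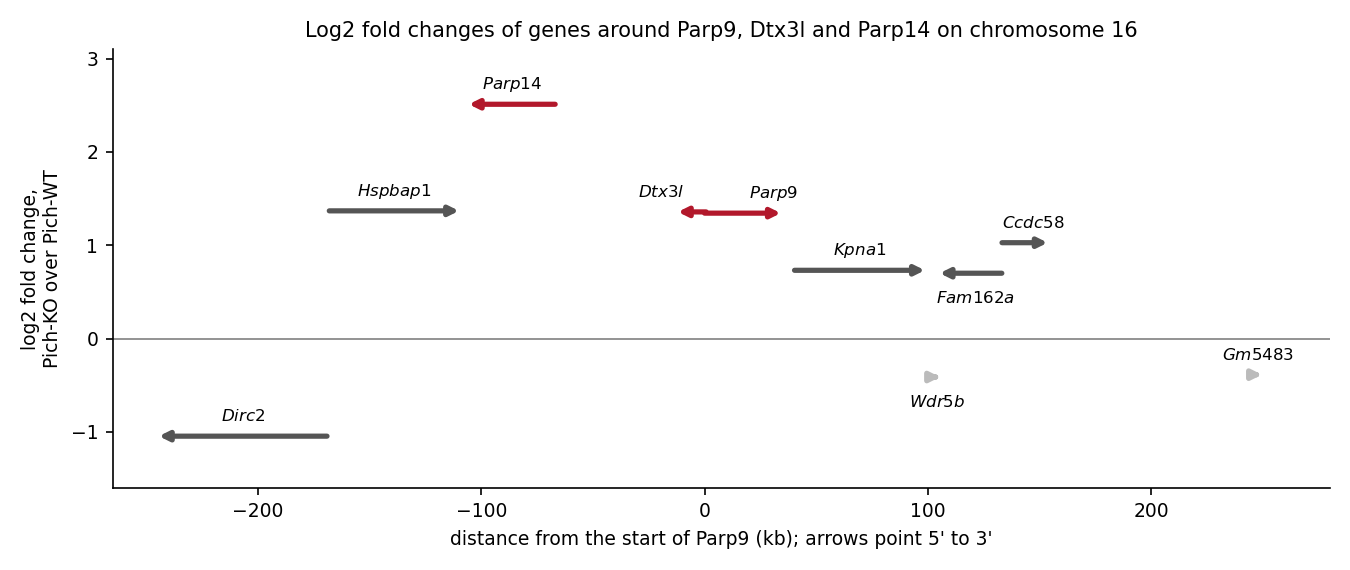
Log2 fold changes (vertical axis) of the protein-coding genes with a mean normalized count of at least 50 around the start of *Parp9* on chromosome 16, drawn as arrows from 5′ to 3′ over their span in kb (horizontal axis). Members are red, other genes that passed the threshold dark grey and those that did not light grey. *Parp14* at 2.51 stands above its neighbours, and *Dtx3l* and *Parp9* start from the same place.

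Of 40 other genes in 6 lists of ADP-ribosylation and interferon signalling, 9 rose, 6 fell and 25 did not pass the threshold, with a median log2 fold change of 0.05. Over all genes tested 7.58% rose and 9.60% fell. With at least 10 reads required in every sample, 11 listed genes rose and 6 fell, against 2937 and 3135 of all 13924 genes. The counts of the lists are therefore a description and no result about these pathways. Each list held changes of both signs. Among the other 9 PARP family genes, 2 rose, 2 fell and 5 did not pass, with a median of 0.05. *Parp8* had 2133 and 2494 in *Pich*-KO samples, against 1259 and 1106 in *Pich*-WT samples (log2 fold change 0.97, limma adjusted p = 0.00171). *Zc3hav1* (also PARP13 or ZAP), a catalytically inactive member that binds viral RNA and is itself an interferon target, had 2650 and 2268 against 1452 and 1349 (log2 fold change 0.81, limma adjusted p = 0.00292). *Parp16*, a member of the endoplasmic reticulum membrane, fell by 1.01 and the tankyrase *Tnks2* by 0.77 on the log2 scale. *Tiparp* (PARP7), known as a brake on interferon production, was at 880 and 858 against 951 and 872 and was not called (log2 fold change -0.07, limma adjusted p = 0.796).

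Of the other 4 Deltex genes, which like *Dtx3l* encode ubiquitin ligases, *Dtx4* rose (719 and 1088 against 326 and 271, log2 fold change 1.57, limma adjusted p = 0.00212). *Dtx2* and *Dtx3* had log2 fold changes of 0.04 and -0.34 and were not called, and *Dtx1* was near the detection limit with 9 reads in *Pich*-KO and 15 in *Pich*-WT. The median of the 4 was -0.15. Enzymes that remove ADP-ribose were divided, with 2 of 7 higher, 1 lower, 4 not called and a median of -0.37. *Parg*, which cuts poly-ADP-ribose chains, rose by a log2 fold change of 0.56, and *Adprs* (listed under its older symbol *Adprhl2*), which frees serine residues, rose by 0.48. *Adprh*, which acts on arginine, fell by 0.37 on the log2 scale. *Macrod1* and *Macrod2*, erasers of single units, had log2 fold changes of -0.52 and -0.60 and did not pass.

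Among 6 partners of PARP1 and PARP2 in break repair, *Lig3*, a DNA ligase, rose (1570 and 1296 against 603 and 626, log2 fold change 1.21, limma adjusted p = 0.000935). *Hpf1*, the cofactor that directs both enzymes to serine, and the scaffold *Xrcc1* had 0.38 and 0.35 and did not pass, none fell, and the median of the list was 0.32. Of 8 genes of NAD metabolism, 1 rose, 1 fell and 6 were not called, with a median of 0.11. *Nampt*, the rate-limiting enzyme of NAD salvage from nicotinamide, had 3402 and 2712 in *Pich*-KO samples, against 1178 and 1176 in *Pich*-WT samples (log2 fold change 1.37, limma adjusted p = 0.000380). *Naprt*, which starts from nicotinic acid instead, fell from 202 and 199 to 37.1 and 76.2 (log2 fold change -1.90, limma adjusted p = 0.00769).

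Of 6 genes between the interferon receptor and ISGF3, 2 rose, 2 fell and 2 were not called, with a median of -0.26. The genes that rose encode ISGF3 subunits. *Stat2* had 1496 and 1158 in *Pich*-KO samples, against 627 and 627 in *Pich*-WT samples (log2 fold change 1.07, limma adjusted p = 0.00254). *Irf9* had 1634 and 1862 against 1035 and 1039 (log2 fold change 0.75, limma adjusted p = 0.00433). *Stat2* thus shared with the interferon-linked members a higher first *Pich*-KO sample, and *Irf9* did not. The receptor chain *Ifnar1* fell (1657 and 1382 against 2302 and 2156, log2 fold change -0.56, limma adjusted p = 0.0185), as did the kinase *Jak1* (4295 and 3121 against 6755 and 5623, log2 fold change -0.75, limma adjusted p = 0.0135). These 2 genes also had the higher value in the first *Pich*-KO sample. *Ifnar2* and *Tyk2* had log2 fold changes of -0.27 and -0.25 and did not pass.

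**Figure D5:**
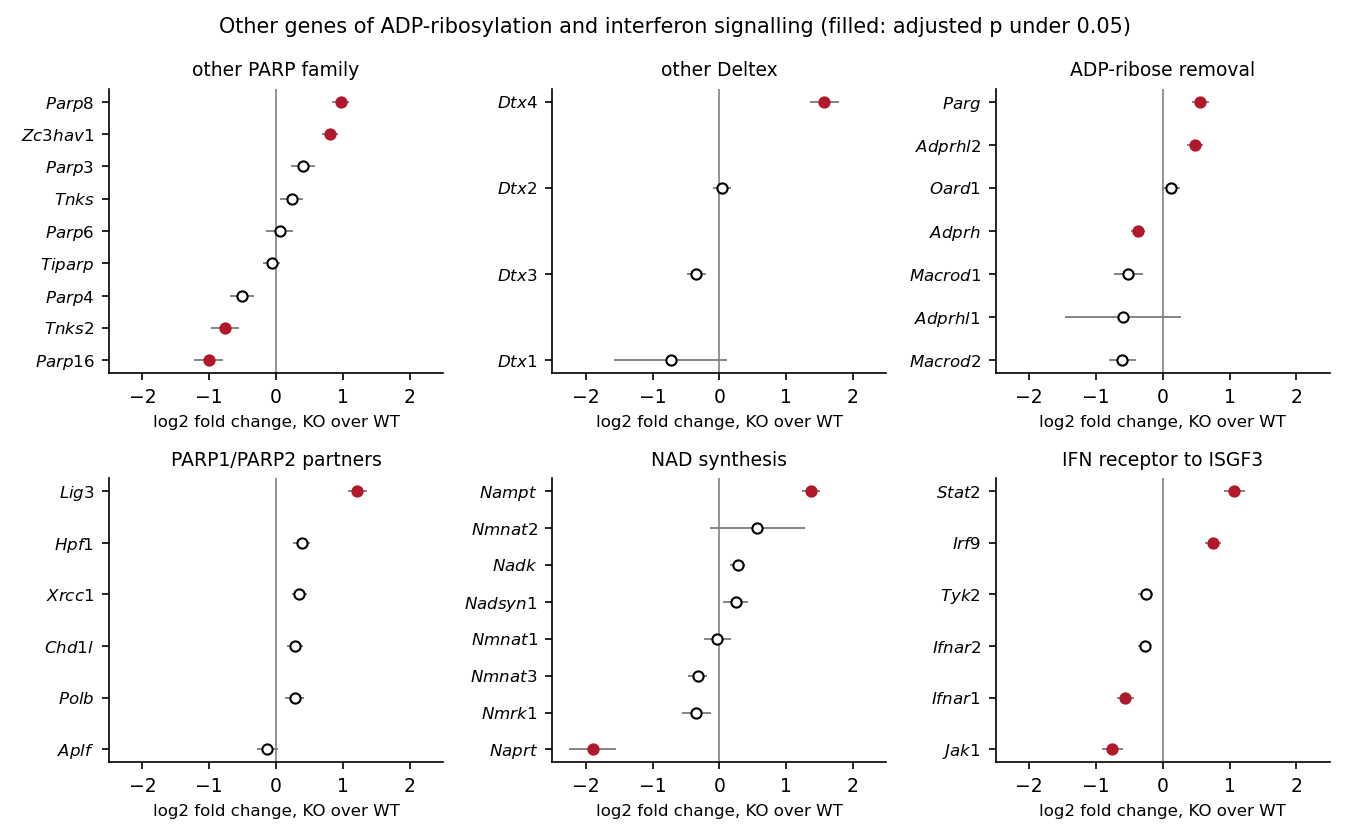
Log2 fold changes (points, with standard errors as lines) of 40 genes in 6 lists, filled in red where the limma adjusted p was under 0.05. Each list holds genes on both sides of 0, and the ISGF3 genes *Stat2* and *Irf9* lie to the right while the receptor and kinase genes lie to the left.

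The mean profile of the 6 interferon-linked genes over the 4 samples, each gene centred on its own mean log2(normalized count + 1), was compared with that of all 10544 genes whose mean reached 100 by Euclidean distance. *Parp9*, *Dtx3l* and *Parp10* ranked 2, 4 and 5 in nearness to it, *Parp11* and *Parp12* ranked 256 and 277, and *Parp14*, with its larger amplitude, ranked 2896. Each of the 6 is part of this mean, so the nearness of members is partly built in. The nearest genes outside the members were *Ifi47*, an interferon-inducible GTPase, at a distance of 0.05, and *Lgals3bp*, a secreted galectin-binding glycoprotein, at 0.10. *Ddx60*, an interferon-induced helicase, followed at 0.15, as did *Gpc3*, a cell-surface glypican, and *Asb1*, a SOCS box protein, both at 0.15. *Ifi47* had 2957 and 1864 in *Pich*-KO samples, against 873 and 911 in *Pich*-WT samples. *Lgals3bp* had 10879 and 7616 against 3233 and 3619. *Gpc3* had 501 and 361 against 175 and 162. With 4 samples in 2 groups, nearness reflects little more than the size of the fold change and the distance between the *Pich*-KO samples.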

How the data were processed

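RNA of sorted fetal liver LSK cells was sequenced in 2 *Pich*-KO and 2 *Pich*-WT samples, libraries being made with a TruSeq kit without strand marking. The deposited table holds a signal made by the authors, gene counts divided by 1 size factor per sample, with gene lengths. Whole reads were recovered for 100% of values (tolerance 0.01). Its coordinates match GRCm38 (97.8% of 39131 genes have the GENCODE M21 span), although the submitters' processing notes list mm8, mm9 and Bowtie 0.12.2 without a role. The RNA-seq aligner and counter are not given in the sources used here. The authors' fold changes and p-values, also in the table, were not used.

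Genes with a mean of at least 1 were tested with limma 3.58.1 (variance trend) on log2(value + 1), in R 4.3.3, so fold changes of low genes are understated. Alternatives were another pseudocount, no filter, at least 10 reads, no trend, a replicate block, leaving out samples, and edgeR 4.0.16 or DESeq2 1.42.0 on the recovered reads. Same-numbered samples were not paired by any label. Counting error did not account for the spread within a group (chi-square per degree of freedom 14.7 in *Pich*-KO over 19464 genes and 8.18 in *Pich*-WT over 20894). The members and gene lists were chosen with earlier results of these data known, and 1 listed gene is not reported here. The text names all members, members of the fixed lists, led by those past the threshold with the largest changes, neighbours within 250 kb and the 5 genes of nearest profile.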

Additional observations from a re-analysis of the deposited data

How the results depend on the processing

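The 8 log2 fold changes were above 0 in all 120 values from 15 alternatives, of which 73 stayed on their side of the threshold, 42 lost the call, 5 gained it and 0 changed sign. With all 4 samples, and leaving aside limma without the variance trend, higher and lower calls over all genes ranged from 1840 and 2326 (no filter) to 3122 and 3874 (replicate block). Without the variance trend limma called 0 genes in either direction, including 0 of the 6 interferon-linked genes, 0 of *Parp1* and *Parp2* and 0 of the listed genes, with 7377 genes at an unadjusted p under 0.05. The calls were likewise lost in every count when limma was given 3 samples. These fits have 1 residual degree of freedom, but so has the replicate block, which did call genes. Why the calls were lost was not tested. edgeR without each sample in turn, chosen after seeing the data, called 1717 to 3685 genes higher and 2270 to 3917 lower. It called all 6 interferon-linked genes each time, and 0 to 2 of *Parp1* and *Parp2*, neither being called when a *Pich*-WT sample was left out. *Parp1* and *Parp2* gave 0 calls with a pseudocount of 0.1 or no filter, and 2 with at least 10 reads, with edgeR and with the replicate block, against 1. The correlation of deviations of same-numbered samples was 0.01 over 10544 genes. With 2 samples a group, this cannot show whether same-numbered samples were handled together. Lower calls among the 40 listed genes were 6, falling to 3 with no filter and to 2 with edgeR without *Pich*-WT sample 1. The members had 152 to 8547 reads per sample, and how much of their own spread is counting error was not tested.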
